A study of Mus musculus with 6 samples.

Results

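The data describe 8 genes that answer foreign or misplaced nucleic acid, in mouse lymph node T cells with and without Ezh2. The members were the RNA sensors Ifih1, Dhx58 and Ddx60, the nucleic acid sensor Zbp1, the kinase gene Eif2ak2, and the antiviral poly(ADP-ribose) polymerase genes Parp9, Parp12 and Parp14. Every probe set whose only gene symbol in the platform annotation is one of these names was taken, which gave 15 probe sets of the 45101 in the table. The genes were chosen by function, with the log2 differences between the same groups already known. Their values are therefore a description, and no test of a member is used as evidence.

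The series held 3 arrays of Ezh2 deficient lymph node T cells, set against 3 arrays of lymph node T cells from Ezh2 fl/fl mice, in which fl/fl usually denotes loxP sites flanking part of the gene on both alleles. Total RNA was hybridised to single-colour Affymetrix arrays. The labels name no Cre driver, deleted exons, strain, age, sex or treatment, and they do not say whether the arrays hold RNA of separate or pooled animals, so the spread between arrays may be partly technical. Replicates are numbered within each group by the order of the samples, and a number pairs no arrays.

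Values are quantile-normalised intensities on a linear scale, where brighter means more transcript for a given probe set. Probe sets differ in brightness for reasons of their own sequence, so each level is read against the same probe set on other arrays. Differences are Ezh2 deficient minus Ezh2 fl/fl on the scale log2(intensity + 43.3), with the limma standard error (SE), and group values are means ± SD of intensities over 3 arrays. All 15 member probe sets lay above the filter that removed dim probe sets.

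Ezh2, the catalytic subunit of Polycomb repressive complex 2, averaged 282 ± 6.55 in Ezh2 deficient and 688 ± 111 in Ezh2 fl/fl arrays (SD, n = 3 each, limma adjusted p = 0.0705), and the groups did not overlap. All 9 measured T cell markers passed the filter, and their summed intensity was 79349 to 80229 in the deficient and 81083 to 83146 in the fl/fl arrays. These sums did not overlap, with the deficient arrays lower. Cd8b1 had the largest fall in mean intensity, at 10914 ± 498 in the deficient and 12247 ± 79.1 in the fl/fl arrays. Of the 9 markers 2 had a difference above 0, Cd5 at 0.13 and Cd3g at 0.07. Of 8 measured B cell markers 5 passed the filter (Cd79b, Blk, Ms4a1, Pax5 and Ebf1), and Cd79a, Cr2 and Fcrla lay below it. Median deposited intensities were 163.3 to 167.7 in the deficient and 168.7 to 188.1 in the fl/fl arrays, with fl/fl replicate 1 the highest. In bulk RNA, fewer cells of a type and less RNA per cell cannot be told apart.

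Cells meet viral RNA with sensors in the cytosol. Ifih1 (MDA5) is a helicase that binds long double-stranded RNA and signals through the mitochondrial adaptor Mavs to induce interferon, and Dhx58 (LGP2) is a related helicase that lacks the signalling domains and adjusts the response of the others. Secreted interferon acts through its receptor, Jak1 and Tyk2 on a complex that holds Stat2 and Irf9 and binds the interferon-stimulated response element (ISRE) in gene promoters. The 8 genes are known targets of this route, so that the sensors are both its source and its product.

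RefSeq promoter windows of the GRCm38.p6 build, each with 250 bases before and 50 after a gene start, were matched by symbol for 4 of the 8 members, Ifih1, Ddx60, Eif2ak2 and Parp12. The ISRE core was searched as GAAANNGAAA and, for the other strand, TTTCNNTTTC, where N is any base. It was found in 3 of these 4 windows, and 3.44% of the 32851 windows in the table hold it. The windows with a match are given 5′ to 3′ on the gene's strand, with the match in capitals, since these letters are what interferon-responsive promoters are known for. Ifih1 lies at chr2:62646206-62646505 on the minus strand, Ddx60 at chr8:61927837-61928136 on the plus strand and Eif2ak2 at chr17:78882523-78882822 on the minus strand.
Ifih1: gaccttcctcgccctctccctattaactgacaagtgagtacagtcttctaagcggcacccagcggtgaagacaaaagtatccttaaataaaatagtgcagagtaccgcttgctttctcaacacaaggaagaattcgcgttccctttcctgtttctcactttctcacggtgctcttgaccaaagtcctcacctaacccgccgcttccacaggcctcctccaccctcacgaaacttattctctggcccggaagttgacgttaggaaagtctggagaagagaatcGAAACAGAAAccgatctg
Ddx60: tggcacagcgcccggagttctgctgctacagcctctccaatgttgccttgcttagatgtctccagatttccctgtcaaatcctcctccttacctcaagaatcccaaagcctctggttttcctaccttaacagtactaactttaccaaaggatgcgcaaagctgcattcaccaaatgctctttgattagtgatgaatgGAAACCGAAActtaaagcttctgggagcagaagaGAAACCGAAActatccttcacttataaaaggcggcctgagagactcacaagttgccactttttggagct
Eif2ak2: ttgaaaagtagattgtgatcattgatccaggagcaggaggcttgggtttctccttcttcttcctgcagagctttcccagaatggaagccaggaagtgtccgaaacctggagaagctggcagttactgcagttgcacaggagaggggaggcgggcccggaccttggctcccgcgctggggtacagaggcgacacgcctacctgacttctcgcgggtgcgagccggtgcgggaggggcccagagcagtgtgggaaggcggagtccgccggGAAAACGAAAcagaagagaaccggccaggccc
Counting the start site of the table as position 1 and the base before it as -1, the match began at position 33 in Ifih1, at -53 and -19 in Ddx60 and at 19 in Eif2ak2. The copies in Ddx60 had the same letters, GAAACCGAAA, while Ifih1 had GAAACAGAAA and Eif2ak2 had GAAAACGAAA. A second motif, the gamma-activated site TTCNNNGAA, reads the same on both strands and was in 8.3% of all windows. Of the 4 member windows searched it matched that of Eif2ak2, as TTCCCAGAA at position -178, and it did not overlap the ISRE core. The Parp12 window held neither set of letters. A match is a description of the sequence and not evidence of binding.

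All 8 genes were higher in the deficient T cells when each was taken by its brightest probe set. Their log2 differences ran from 0.38 to 0.83 with a median of 0.54, beside a median of -0.01 over all 12275 tested genes, of which 46.9% had a difference above 0. By probe set, 14 of 15 were higher and 1, of Dhx58, was lower, where 49.3% of all tested probe sets were higher. On 4 of the 15 probe sets every deficient array lay above every fl/fl array (Ifih1, Ddx60, Eif2ak2 and Parp12), where 6.55% of all tested probe sets did so, and on 0 did every deficient array lie below, where 6.54% did so. Since the contrast was known when the genes were chosen, nothing is read from these counts.

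None of the 15 member probe sets was called by limma at an adjusted p under 0.05 over the 27022 tested probe sets, of which 1 (0.0037%) was called. At an unadjusted p under 0.05 limma had 11 of the 15 higher and 0 lower, where 3.84% of all probe sets were higher and 3.38% lower. Because the members were chosen with this contrast known, nothing is read from that count either. Without the intensity trend, by robust eBayes and with array weights the members called were also 0.

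**Figure D1:**
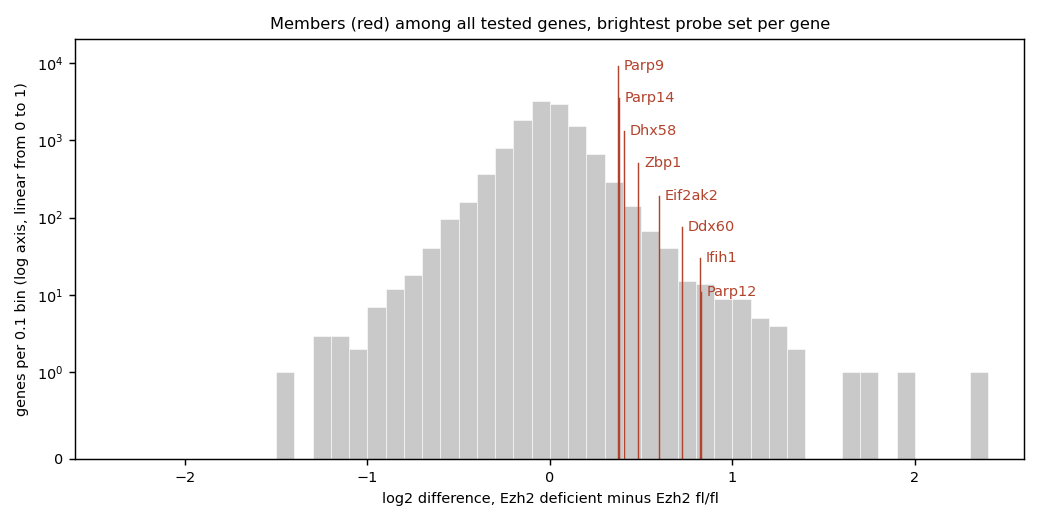
Number of genes (log axis) per 0.1 bin of log2 difference, Ezh2 deficient minus Ezh2 fl/fl, for the 12275 tested genes in grey, with the 8 members as red lines whose height carries no value. The members lie on the right slope, from Parp9 at 0.38 to Parp12 at 0.83.

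Ifih1 had the second largest difference of the 8. Its probe set measured 2349.7, 1399.6 and 2100.5 in Ezh2 deficient replicates 1, 2 and 3, against 796.9, 1097.4 and 1356.3 in Ezh2 fl/fl replicates 1, 2 and 3. The groups did not overlap, but deficient replicate 2 stood close above fl/fl replicate 3. The means were 1950 ± 493 in the deficient and 1084 ± 280 in the fl/fl arrays. The log2 difference was 0.82 (SE 0.22, a 1.77-fold higher value), rank 43 from the top among 12275 genes.

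Dhx58, the related helicase, was read by 3 probe sets whose differences were not of 1 sign. The brightest measured 665.5, 568.1 and 658.1 in the deficient arrays, against 412.4, 411.5 and 587.8 in the fl/fl arrays. Here deficient replicate 2 lay below fl/fl replicate 3, so the groups overlapped. The log2 difference was 0.41 (SE 0.15) on 1451426_at. On 1420768_a_at the values were 293.7, 169.1 and 253.7 in the deficient arrays, against 135.0, 144.1 and 177.0 in the fl/fl arrays, a difference of 0.51 (SE 0.20). On 1420769_at they were 241.3, 222.0 and 239.2 in the deficient arrays, against 350.6, 302.6 and 214.6 in the fl/fl arrays, a difference of -0.24 (SE 0.17). The spread of this last probe set lay in the fl/fl group, where replicate 1 was high and replicate 3 low, the reverse of the other 2 probe sets of the gene. Its difference was -0.11 without fl/fl replicate 1 and -0.41 without fl/fl replicate 3.

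Ddx60, a helicase reported to assist RNA sensing, had the smallest standard error of the 15 member probe sets. Its brighter probe set measured 782.8, 687.8 and 824.5 in the deficient arrays, against 419.7, 442.2 and 471.6 in the fl/fl arrays. All 3 deficient values lay well above all 3 fl/fl values. The means were 765 ± 70.1 in the deficient and 445 ± 26.0 in the fl/fl arrays, a log2 difference of 0.73 (SE 0.11, a 1.65-fold higher value) at rank 57 of 12275. It varied from 0.67 to 0.80 with each array left out. The dimmer probe set, 1439114_at, was noisier, with 453.0, 327.9 and 574.2 in the deficient arrays, against 255.9, 191.3 and 476.7 in the fl/fl arrays. Its groups overlapped through fl/fl replicate 3, and its difference of 0.55 (SE 0.28) was 0.87 without that array and 0.30 without fl/fl replicate 2.

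Zbp1 binds left-handed double-stranded nucleic acid and can start inflammatory cell death through Ripk3. Its brighter probe set measured 2847.8, 1864.0 and 2646.8 in the deficient arrays, against 1337.5, 1712.7 and 2188.1 in the fl/fl arrays. Deficient replicates 1 and 3 stood above all fl/fl arrays, and deficient replicate 2 stood among them. The means were 2453 ± 520 in the deficient and 1746 ± 426 in the fl/fl arrays, and the log2 difference was 0.49 (SE 0.19). It was 0.31 without fl/fl replicate 1. The other probe set had the same layout, at 2753.8, 1373.5 and 2420.2 in the deficient arrays, against 1060.2, 1327.3 and 1867.7 in the fl/fl arrays, and a difference of 0.59 (SE 0.26) that was 0.39 without deficient replicate 1 and 0.88 without deficient replicate 2.

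Eif2ak2 (PKR) is activated by double-stranded RNA and phosphorylates the initiation factor eIF2, which slows translation. All 3 of its probe sets were higher in the deficient T cells. The brightest measured 452.6, 358.8 and 471.4 in the deficient arrays, against 333.9, 250.4 and 224.0 in the fl/fl arrays. The groups did not overlap, with deficient replicate 2 just above fl/fl replicate 1. The means were 428 ± 60.3 in the deficient and 269 ± 57.4 in the fl/fl arrays, a log2 difference of 0.60 (SE 0.16, a 1.51-fold higher value). The others stood at 0.35 (SE 0.18) on 1422005_at and 0.73 (SE 0.22) on 1440866_at, and on both deficient replicate 2 sat inside the span of fl/fl values. On all 3 probe sets fl/fl replicate 1 was the highest of its group, whereas for Ifih1 and Zbp1 it was the lowest.

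Parp12, an enzyme that attaches single ADP-ribose units to proteins and is known to restrict several viruses, had the largest difference of the 8. It measured 1397.6, 825.8 and 1009.1 in the deficient arrays, against 531.4, 632.4 and 562.8 in the fl/fl arrays. The groups did not overlap and the fl/fl values lay close together. The means were 1078 ± 292 in the deficient and 576 ± 51.7 in the fl/fl arrays. The log2 difference was 0.83 (SE 0.17, a 1.78-fold higher value) at rank 40 of 12275, and it was 0.63 without deficient replicate 1.

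Parp9 and Parp14 are macrodomain members of the family, and Parp9 works in a complex with the ubiquitin ligase Dtx3l. In the RefSeq gene table Dtx3l is the protein-coding neighbour of both on chromosome 16. The annotated spans of Dtx3l and Parp9 overlap on the side where Dtx3l starts. Parp9 measured 3178.1, 2310.1 and 3166.1 in the deficient arrays, against 1973.3, 2257.6 and 2358.2 in the fl/fl arrays. Deficient replicate 2 lay between fl/fl replicates 2 and 3 while the others stood well above them. The log2 difference was 0.38 (SE 0.13), with means of 2885 ± 498 in the deficient and 2196 ± 199.6 in the fl/fl arrays. The brighter Parp14 probe set had 3249.7, 2100.9 and 2430.6 in the deficient arrays, against 1725.5, 1999.2 and 2155.7 in the fl/fl arrays. Again only deficient replicate 2 reached into the fl/fl range. Its log2 difference of 0.38 (SE 0.15) was 0.21 without deficient replicate 1.

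The other Parp14 probe set, 1432548_at, differed in its layout. It read 709.9, 707.6 and 558.9 in the deficient arrays, against 620.3, 618.3 and 411.9 in the fl/fl arrays, so that the third replicate was the lowest of each group and the groups overlapped. Its difference was 0.26 (SE 0.17), and 0.075 without fl/fl replicate 3. Dtx3l, which is not a member, averaged 4407 ± 429 in the deficient and 3809 ± 92.7 in the fl/fl arrays on its brighter probe set, a log2 difference of 0.20 (limma adjusted p = 0.642). Its other probe set was at 0.22, and the groups did not overlap on either.

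**Figure D2:**
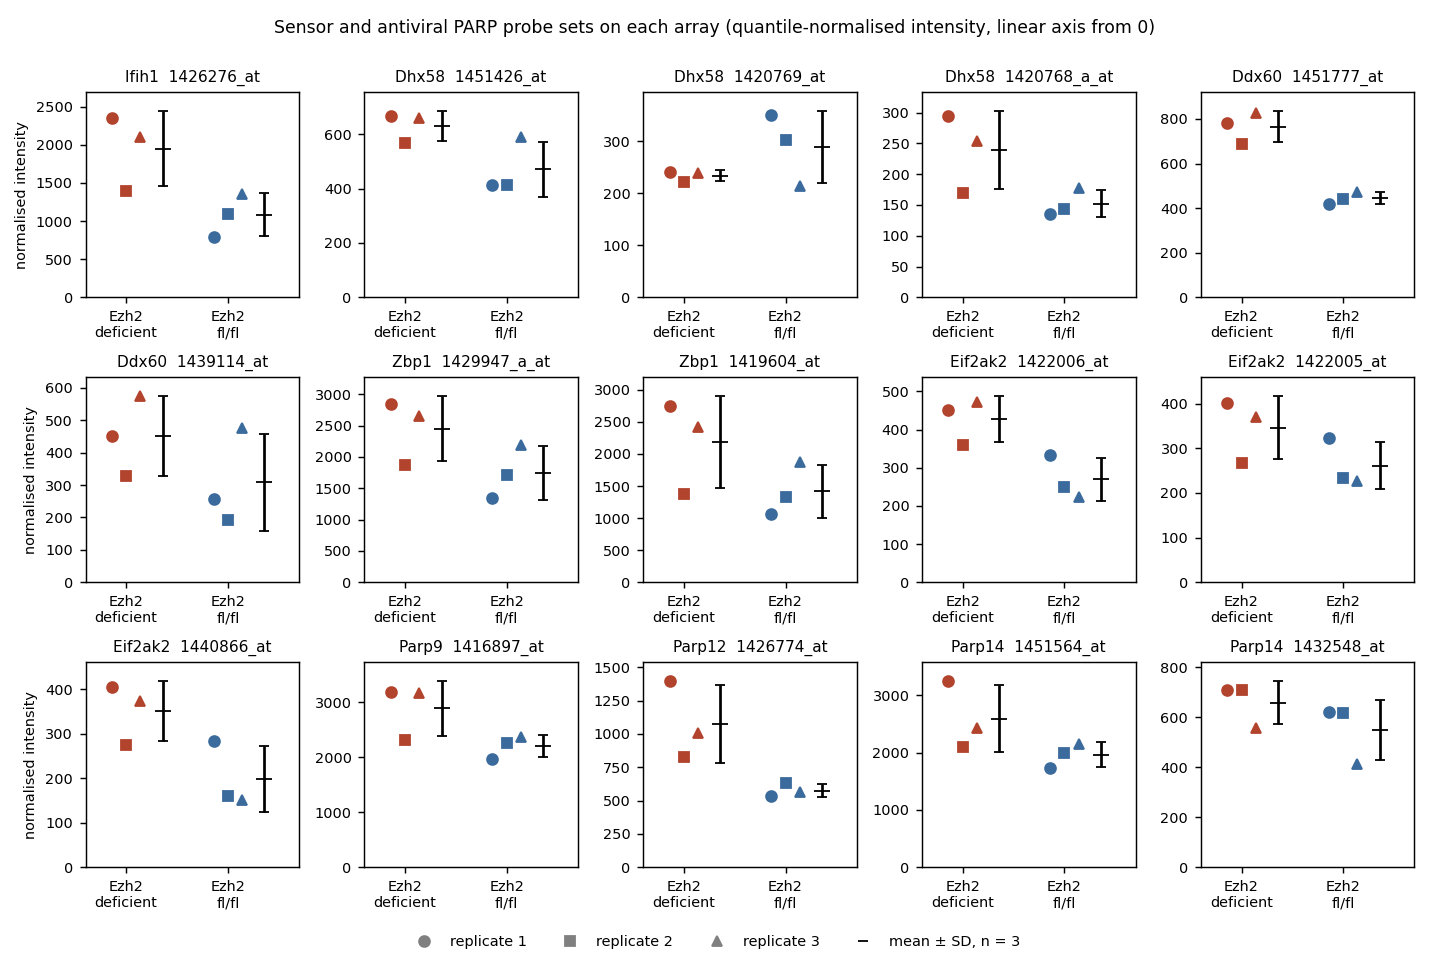
Quantile-normalised intensity (linear axis from 0) of the 15 member probe sets, with a panel for each, on the 3 Ezh2 deficient arrays (red) and the 3 Ezh2 fl/fl arrays (blue). Symbols mark replicates and black bars the mean ± SD. Ifih1, Ddx60 (1451777_at), Eif2ak2 (1422006_at) and Parp12 show no overlap, and Dhx58 1420769_at is the 1 probe set with a lower mean in the deficient group.

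The members had their low deficient array in common, and differed in the order of the others. Relative to the mean of the fl/fl arrays, the median of the 8 genes was 0.72, 0.32 and 0.68 in deficient replicates 1, 2 and 3, and -0.15, 0.02 and 0.12 in fl/fl replicates 1, 2 and 3. Deficient replicate 2 was the lowest of its group for all 8 genes. Deficient replicates 1 and 3 each exceeded every fl/fl array on 8 of 8 genes, and deficient replicate 2 did so on 4 of 8. By probe set these counts were 13, 5 and 13 of 15 for deficient replicates 1, 2 and 3, where 23.6%, 23.5% and 24.5% of all tested probe sets exceeded every fl/fl array. Parp9 came nearest to the fl/fl mean in deficient replicate 2, at 0.08, and Ddx60 stood highest there, at 0.59.

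Within the fl/fl group replicate 3 was the highest array for 6 of 8 genes and replicate 1 the lowest for 6 of 8. Ifih1 spanned the most, from -0.39 in replicate 1 to 0.34 in replicate 3, and Zbp1 from -0.35 to 0.35. Eif2ak2 ran the other way, from 0.29 in replicate 1 to -0.21 in replicate 3. Without deficient replicate 2, the groups did not overlap on 12 of the 15 probe sets, all higher, where 11.2% of all tested probe sets were so. Without fl/fl replicate 3 it was 11 higher and 1 lower, where 12.5% were higher and 12.2% lower. Deficient replicate 2 was the lowest of its group on 14 of the 15 member probe sets, and fl/fl replicate 3 the highest on 9. Leaving out either array therefore raises the count by the layout already described, and nothing is read from the rise. The count of 4 higher was 4 to 6 with any of the other arrays left out, where 10.8% to 12.6% of all tested probe sets were higher without overlap.

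**Figure D3:**
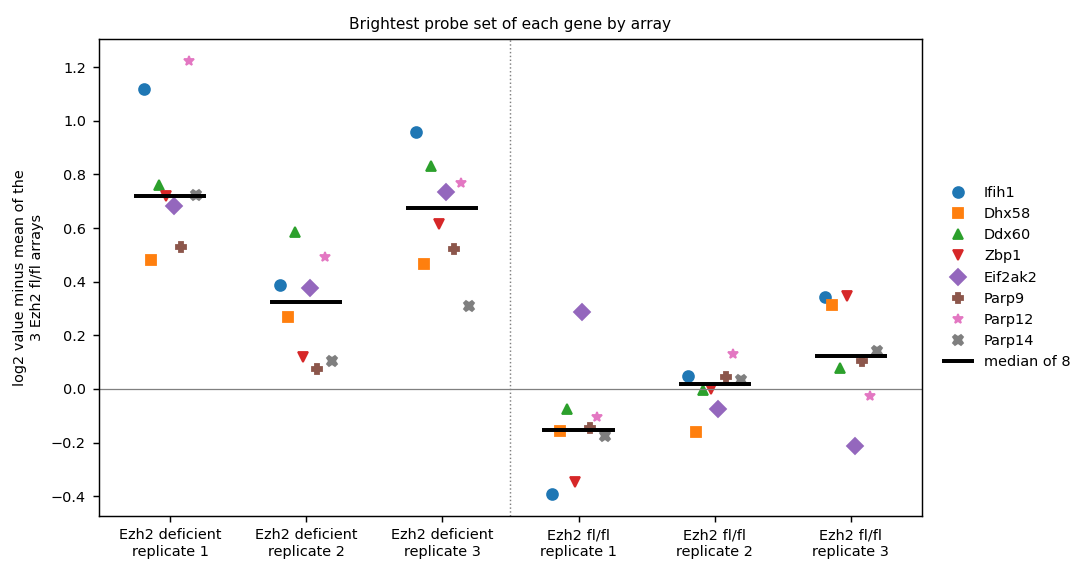
Log2 value of the brightest probe set of each member on each array, minus the mean of the 3 Ezh2 fl/fl arrays, with a symbol per gene and a black bar at the median of the 8. Deficient replicates 1 and 3 have medians of 0.72 and 0.68, deficient replicate 2 of 0.32, and the fl/fl arrays lie from -0.15 to 0.12.

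The genes around the members were read from lists of sensors, adaptors, enzymes and interferon components. Over all lists 95 genes were tested, 54 with a difference above 0 and 41 below. None passed in either direction by limma over all probe sets (adjusted p from 0.573 to 0.999), and at an unadjusted p under 0.05 there were 9 higher and 3 lower, where 3.92% of all tested genes were higher and 4.29% lower. The count was 0 under each of the other settings run as well. The groups did not overlap for 13 higher and 5 lower genes, where 6.4% of all tested genes were higher and 7.8% lower without overlap. The 13 were Adar, Mndal, Tlr7, Traf6, Trim25, Dtx3l, Parp6, Tiparp, Ppp1r15a, Prkra, Ifng, Ifngr1 and Irf9. The 5 were Mavs, Tbkbp1, Macrod1, Eif2b2 and Tyk2. For Mavs the highest deficient value, 505.1, was barely below the lowest fl/fl value, 505.4. The values of the listed genes are given without a call.

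Among 17 other nucleic acid sensors, 9 were above 0 and the median difference was 0.01. Ddx58 (RIG-I), the sensor of RNA ends that also signals through Mavs, averaged 3665 ± 390 in the deficient and 3047 ± 219 in the fl/fl arrays. Its log2 difference was 0.26, with its other probe sets at 0.28 and -0.15. Mndal, an interferon-inducible DNA-binding family member, was at 0.23 and the RNA-editing enzyme Adar at 0.15, both without overlap on their brightest probe sets. The other Adar probe sets were at 0.19 and 0.35, both with overlap. Tlr7, the endosomal receptor for single-stranded RNA, had the largest difference of the list, 0.93, but was dim, with 230.2, 168.7 and 334.0 in the deficient arrays, against 110.5, 54.3 and 166.0 in the fl/fl arrays. Tlr3, the endosomal receptor for double-stranded RNA, lay below the filter on both of its probe sets, as did Aim2, Ifi204 and Tlr8 on theirs.

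The 24 adaptors, kinases and ubiquitin ligases downstream of the sensors had a median of -0.004, with 11 above 0 and 13 below. Mavs was at -0.20 (473 ± 33.7 in the deficient and 551 ± 74.2 in the fl/fl arrays) and its other probe set at -0.07. Trim25, a ubiquitin ligase that acts on RIG-I, was the highest of the list at 0.43 (3690 ± 474 in the deficient and 2741 ± 511 in the fl/fl arrays), with 0.33 and 0.24 on its other probe sets. Ticam1, the adaptor of Tlr3, was at -0.45 with overlapping groups, and Tbkbp1, an adaptor of the kinase Tbk1, at -0.36. Irf7, the transcription factor that amplifies interferon output, was at 0.16, where deficient replicate 2 and fl/fl replicate 2 were both low (3121.2, 1733.5 and 2694.5 in the deficient arrays, against 2249.3, 1493.7 and 3107.9 in the fl/fl arrays).

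Other ADP-ribose genes were read on their brightest probe sets. Of 18 tested, 14 were above 0, with a median of 0.04 and a range from -0.23 to 0.21. The largest were Macrod1, a hydrolase that removes ADP-ribose, at -0.23, the tankyrase Tnks2 at 0.21 and Parp3, an enzyme of DNA repair, at -0.20, though Parp3 had -0.23 and 0.37 on its other probe sets. Zc3hav1, the antiviral zinc finger member of the family, was at 0.07 and Parp11 at 0.03, with other probe sets of Zc3hav1 at 0.21 and -0.25 and of Parp11 at -0.08. These genes were set beside the members only as values, and the difference between the lists was not tested.

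The partners of Eif2ak2 and Zbp1 were read next. Of 17 genes of the eIF2 pathway 7 were above 0 and 10 below, with a median of -0.02 and a range from -0.22 to 0.18. The extremes were Eif2b2, a subunit of the eIF2 exchange factor (-0.22), and Prkra, which activates PKR (0.18, 194 ± 7.76 in the deficient and 167 ± 12.5 in the fl/fl arrays), with Tarbp2, an RNA-binding inhibitor of PKR, at 0.16. Of 5 tested cell death partners of Zbp1, the kinase Ripk3 was at -0.04, Fadd at -0.24 with -0.39 on its other probe set, Cflar at 0.08 and Casp6 at 0.07. Mlkl, the effector of necroptosis, lay below the filter with 18.8 ± 6.0 in the deficient and 17.4 ± 6.88 in the fl/fl arrays.

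Interferon transcripts themselves were mostly not above the filter. Of 10 interferon genes measured, 7 lay below it, all of them interferon alpha family genes. Ifnb1, the first type I interferon made after sensing in many cells, was at -0.07, dim at 164 ± 27.0 in the deficient and 174 ± 9.24 in the fl/fl arrays. Ifng, the interferon of activated T cells, measured 323.5, 296.3 and 280.7 in the deficient arrays, against 178.6, 268.1 and 219.2 in the fl/fl arrays. Its groups did not overlap, with a log2 difference of 0.38 (limma adjusted p = 0.657). The third interferon above the filter was Ifnz, at 0.21, with 213.1, 184.6 and 123.0 in the deficient arrays, against 301.3, 118.7 and 69.6 in the fl/fl arrays.

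The receptor chains Ifnar1 and Ifnar2 were at 0.03 and -0.05, and the 11 receptor and signalling genes had a median of 0.06. Of the complex that binds the ISRE, Irf9 averaged 2730 ± 253 in the deficient and 2240 ± 112 in the fl/fl arrays, a difference of 0.28 without overlap. Stat2 was at 0.30 with overlap and at 0.41 without overlap on its dimmer probe set. The kinase Tyk2 was at -0.27 on its brighter and 0.38 on its dimmer probe set.

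**Figure D4:**
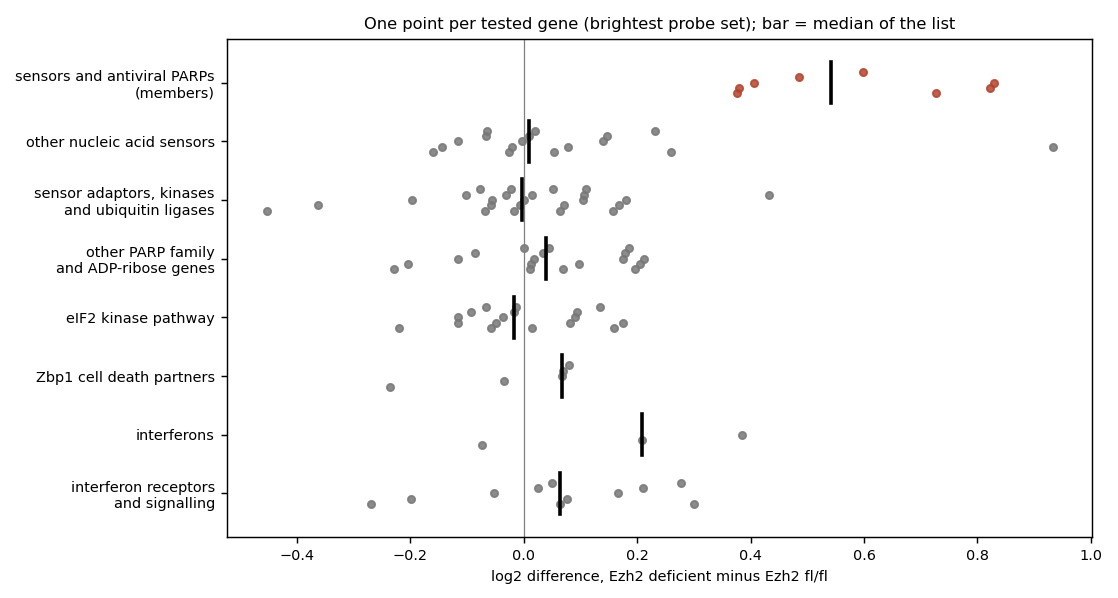
Log2 difference, Ezh2 deficient minus Ezh2 fl/fl, of each tested gene (points, brightest probe set) for the 8 members in red and 7 related lists in grey, with a black bar at the median. The members, chosen with this contrast known, run from 0.38 to 0.83, and the other lists have medians from -0.02 to 0.21, the last of 3 interferon genes only.

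The genes most like the members were sought among 4600 genes whose values ranged by at least 0.5 on the log2 scale. Likeness was the root mean square distance, over the 6 arrays, from the mean profile of the 8 members, each centred on its own mean. Trafd1, a known inhibitor of innate immune signalling, was nearest at 0.04, where the median of all candidates was 0.43. It measured 1142.1, 827.5 and 1070.4 in the deficient arrays, against 610.3, 698.3 and 777.0 in the fl/fl arrays, with the same low deficient replicate 2. Next came Phf11d at 0.07, the interferon-induced GTPase Gbp6 at 0.08, Slfn5 at 0.09, Akap3 at 0.09 and Cpne8 at 0.10, of which Akap3 and Cpne8 were dim. The members themselves lay between 0.11 (Parp9) and 0.23 (Eif2ak2) from their mean. With 6 arrays many profiles can look alike, and the likeness is a description.

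Markers of other cell types were read beside the members. The summed intensity of 8 dendritic cell markers was 2198, 1644 and 1677 in deficient replicates 1, 2 and 3, and 1174, 1671 and 1210.4 in fl/fl replicates 1, 2 and 3. Of these 8, 5 passed the filter, and Flt3, Cd209a and Batf3 did not. Fscn1, an actin bundling gene of mature dendritic cells, averaged 993 ± 313 in the deficient and 479 ± 340 in the fl/fl arrays, a log2 difference of 1.18. Without Fscn1 the sum of the other 7 was 849, 879 and 813 in the deficient arrays, and 1010.5, 832 and 776 in the fl/fl arrays, so that the higher sum rested on this gene. Among those 7, Ccl22 was at 0.51, Xcr1 at 0.19 and Itgax at 0.02, while Zbtb46 was at -0.21 and the dim Batf3, Cd209a and Flt3 at -0.07, -0.39 and -0.47. The natural killer markers summed to 1751 to 2102 in the deficient and 1443 to 1873 in the fl/fl arrays. Of 6 measured, 4 passed the filter, with Gzma at 0.63, Klre1 at 0.34, Eomes at 0.27 and Klrk1 at -0.33. Ncr1 and Klra8 lay below it.

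Markers of plasmacytoid dendritic cells, the best known interferon alpha producers, summed to 5411 to 8093 in the deficient and 5182 to 7618 in the fl/fl arrays. Siglech, their defining marker, averaged 120.5 ± 24.0 in the deficient and 167 ± 85.1 in the fl/fl arrays, a log2 difference of -0.30. Of the other 6, all above the filter, Bst2, itself a known interferon-induced gene, was at 0.42, Tcf4 at 0.13 and Irf8 at 0.12, and Klk1, Pacsin1 and Ccr9 were at -0.03, -0.08 and -0.15. The sum of the list rested mostly on Ccr9 and Bst2. Ccr9 averaged 2676 ± 599 in the deficient and 3066 ± 1078 in the fl/fl arrays. Bst2 averaged 2018 ± 611 in the deficient and 1460 ± 213 in the fl/fl arrays. This sum was lowest in replicate 2 of both groups. B cell markers summed to 1324 to 1486 in the deficient and 1385 to 1506 in the fl/fl arrays. Monocyte and macrophage markers summed to 1558 to 1793 in the deficient and 1759 to 1833 in the fl/fl arrays. Red cell and platelet markers did not overlap, with sums of 697 to 762 in the deficient and 814 to 910 in the fl/fl arrays, and Hba-a1 was at -0.38, Itga2b at -0.15, with Alas2, Pf4 and Ppbp below the filter. Neutrophil markers summed to 724 to 937 in the deficient and 749 to 932 in the fl/fl arrays, and stromal and endothelial markers to 1883 to 1968 in the deficient and 1821 to 2283 in the fl/fl arrays. The part of these lists in the members' values was not tested.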

How the data were processed

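The deposited table holds linear intensities for 45101 probe sets on 6 arrays, and these deposited values had the same mean on all arrays, 500.002, once 2% was trimmed from either end, a pattern that common scaling leaves. The labels name no software or settings. Medians differed by 15.2%, so the arrays were quantile normalised and turned into log2(intensity + 43.3), 43.3 being the 20th percentile. The 64 control probe sets and those below the 40th percentile of mean log2 were left out, which left 27022. limma 3.58.1 (R 4.3.3) with an intensity-trended eBayes compared 3 arrays against 3, with 4 residual degrees of freedom, two-sided, with Benjamini-Hochberg adjustment over all 27022. The number of arrays limits the precision. The fit and the likeness measure were run on simulated data with planted signals. Those data followed the fitted model and the member profile, so the run checks the code and not its behaviour on these arrays.

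The members and the gene lists were chosen with earlier results of these data known. Genes were named from the platform annotation (34945 probe sets with 1 symbol, 932 with several, 9160 with none), and a RefSeq table (GRCm38.p6) matched the identifiers of all 8 members. Per list, the 3 genes with the largest absolute difference and a fixed set of partners were named, and 6 genes nearest in profile. Further genes named were markers, genes below the filter, and Dtx3l as a neighbour. Parp10, also on the lists, was not analysed here. Alternatives were other scalings, pseudocounts 4 times lower and higher, filters, eBayes settings, array weights and each array left out.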

Additional observations from a re-analysis of the deposited data

How the results depend on the processing

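The median difference of the 8 members, 0.54, stayed between 0.45 and 0.69 under all 14 alternatives run, including the mean over all probe sets of a gene (0.55) and probe sets without a suffix (0.59). By the brightest probe set of each gene, all 80 values of single members under 10 alternatives kept their sign, from 0.21 to 1.04. Of these, 79 moved by less than the spread between replicates. Among the dimmer probe sets, Dhx58 1420769_at stayed below 0, from -0.41 to -0.11, and Parp14 1432548_at came down to 0.075. The count of 4 member probe sets without overlap was 4 to 12 with an array left out, with 12 higher without deficient replicate 2, and 11 higher and 1 lower without fl/fl replicate 3. These arrays were the lowest deficient and the highest fl/fl array of most member probe sets, so nothing is read from the rise. The share of all tested probe sets that were higher without overlap was 6.55%, and 10.8% to 12.6% with an array left out. The number of called probe sets, 1, was 3 under the deposited scaling, 2 under median centring, 3 by robust eBayes, 3 with array weights and 1 to 6 with an array left out. The difference of Ezh2 was -1.16, with -1.28 to -1.05 over the arrays left out. Its limma adjusted p came under the threshold in 4 alternatives. These were the deposited scaling (-1.19, 0.0421), robust eBayes (-1.16, 0.04997), array weights (-1.20, 0.0346) and fl/fl replicate 1 left out (0.0306). In the other 11 it stayed above, from 0.0564 with the filter at the 60th percentile to 0.263 without deficient replicate 3. It was 0.241 with no filter and 0.217 without the intensity trend. The cause of these changes was not tested. No pathway gene was called under any of the 15 alternatives. No paired analysis was possible because the labels give the groups no shared replicate numbers. No detection call was used here, so the filter on mean brightness stands in for signal over background, and the 3 arrays of each group limit the precision.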
